A study of Mus musculus with 28 samples.

Results

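The 7 genes described here encode the TAM receptors and the proteins that bridge dying cells to phagocytes. They are the receptor tyrosine kinases Mertk, Axl and Tyro3, the TAM ligands Gas6 and Pros1, the bridging protein Mfge8 and the integrin subunit Itgb5. They were chosen by symbol, and all 7 were found among the 24391 gene symbols of the count table. Motor cortex was collected from 7 mice that had run on a rotarod for 1 h and from 7 mice that stayed in the home cage. All 14 mice carried the genotype Cx3CR1-Cre/TRAPfl, so the controls carry the transgenes too. From each mouse came a TRAP and a total lysate library, giving 28 libraries. TRAP (translating ribosome affinity purification) pulls down tagged ribosomes with their mRNA, here from cells in which a Cx3cr1 promoter drove Cre. In brain these are mainly microglia, together with macrophages at the tissue borders. Within each condition 4 mice belonged to cohort 1 and 3 to cohort 2, and 4 were labelled female and 3 male. The sources used here give neither age nor strain background. The design sets the run against the home cage in each fraction, and TRAP against lysate shows in which fraction the receptor and ligand mRNAs stood higher.

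TAM receptors recognise phosphatidylserine, the lipid that dying cells and some synapses expose, only through a bridge. Gas6 and Pros1 (protein S) bind the lipid with a domain whose glutamates are carboxylated by a vitamin K-dependent enzyme, and bind the receptor with their other end. Mfge8 binds the same lipid and is recognised by the integrins αvβ3 and αvβ5 through an Arg-Gly-Asp (RGD) motif, and Itgb5 is the β chain of αvβ5. Mertk and Axl are known as receptors of phagocytes, and Tyro3 is the TAM receptor best known from neurons.

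The sequence on which Mfge8 and Itgb5 meet is shown first, since the mRNAs of this ligand and this receptor chain turned out on opposite sides of the comparison of the fractions. It is a stretch of 63 coding bases of Mfge8 in GENCODE transcripts, at chr7:79145281-79145343 on the minus strand of GRCm38. The capitals mark the codons of the RGD motif, which start at codon 87.
Mfge8 RGD region: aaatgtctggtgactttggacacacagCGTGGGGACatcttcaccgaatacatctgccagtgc

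Promoters of all 7 genes were found in the RefSeq table for GRCm38.p6, each from 250 bases before to 50 bases after a gene start. Shown are the 2 genes highest in TRAP over lysate, Itgb5 and Pros1, and the 2 lower in TRAP, Tyro3 and Mfge8. Capitals mark matches on either strand to the GC box GGGCGG, the purine box GAGGAA, bound by the myeloid factor PU.1, and the TATA box TATAAA. The positions are chr16:33829415-33829714 (plus strand) for Itgb5, chr16:62854057-62854356 (plus) for Pros1, chr2:119799264-119799563 (plus) for Tyro3 and chr7:79149011-79149310 (minus) for Mfge8.
Itgb5 promoter: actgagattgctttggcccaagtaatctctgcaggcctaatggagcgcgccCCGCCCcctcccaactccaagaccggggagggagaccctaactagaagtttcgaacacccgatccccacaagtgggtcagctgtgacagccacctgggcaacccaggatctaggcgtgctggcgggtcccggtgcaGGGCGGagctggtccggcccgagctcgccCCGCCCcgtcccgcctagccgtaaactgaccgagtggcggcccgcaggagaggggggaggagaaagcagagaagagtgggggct
Pros1 promoter: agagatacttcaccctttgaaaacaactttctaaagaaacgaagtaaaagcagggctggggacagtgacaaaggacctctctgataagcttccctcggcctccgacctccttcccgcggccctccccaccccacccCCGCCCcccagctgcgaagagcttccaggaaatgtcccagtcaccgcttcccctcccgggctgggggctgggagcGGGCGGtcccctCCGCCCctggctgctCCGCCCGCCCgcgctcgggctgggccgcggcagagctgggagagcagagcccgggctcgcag
Tyro3 promoter: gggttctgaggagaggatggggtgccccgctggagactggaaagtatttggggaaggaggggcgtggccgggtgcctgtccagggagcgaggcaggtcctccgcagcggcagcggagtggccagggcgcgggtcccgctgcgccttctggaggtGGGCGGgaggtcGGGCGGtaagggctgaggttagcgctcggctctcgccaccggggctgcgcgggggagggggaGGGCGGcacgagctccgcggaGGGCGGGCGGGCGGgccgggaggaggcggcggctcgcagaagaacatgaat
Mfge8 promoter: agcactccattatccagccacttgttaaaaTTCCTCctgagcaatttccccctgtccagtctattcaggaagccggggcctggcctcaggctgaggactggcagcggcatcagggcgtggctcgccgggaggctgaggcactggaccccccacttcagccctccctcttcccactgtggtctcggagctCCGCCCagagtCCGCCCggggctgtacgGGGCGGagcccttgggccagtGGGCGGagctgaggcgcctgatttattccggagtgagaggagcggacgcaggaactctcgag
All 7 promoters held a GC box, against 35.7% of the 32851 promoters in the table. The TATA box was in none of the 7 windows, against 13.6% of all promoters. The letters GAGGAA were in 2 of the 7 windows, against 28.3% of all promoters. These were Mfge8, 220 bases before the start, and Axl, 130 bases before it, and not the windows of Itgb5, Pros1 or Mertk. The 7 windows held 58.3% to 73.3% G and C, above the median of 52.7% over all promoters.

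The 7 run TRAP libraries held between 104598915 and 241381845 counts each and the 7 home cage TRAP libraries between 104405588 and 157669964. Run lysates held between 70090518 and 179477632 counts and home cage lysates between 84399875 and 169315558. The lowest count of any of the 7 genes in any library was 655, for Pros1 in a lysate library. Values below are CPM (counts scaled to a common library size), scaled by TMM over all 28 libraries. A cell type tag in the labels reads Microglia for every sample, the lysates included, so it was checked against markers. In TRAP over lysate all 16 microglial and all 10 border macrophage markers were higher, with medians of 6.58 and 6.24 on the log2 scale (Cx3cr1 6.96, Csf1r 6.30, Mrc1 6.00). All 12 neuronal, 12 astrocytic and 12 oligodendrocytic markers were lower, with medians of -1.47, -0.92 and -1.48 (Snap25 -1.89, Gfap -1.52, Mbp -1.49). All 12 endothelial markers were also higher in TRAP, with a median of 1.93. In the lysates the summed microglial markers reached 590 to 778 CPM, against 9286 to 17984 CPM of neuronal ones, so the lysate is whole tissue and not microglia. The cohorts differed in GC trend: across genes the cohort 2 over cohort 1 difference correlated with GC content at a Spearman coefficient of 0.736 in TRAP and 0.795 in lysate (a description over 15034 and 15866 genes). In 2 of the 3 run mice of cohort 2 the Y-linked genes went against the labelled sex, so each fitted result was also computed without them.

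Relative to the whole tissue, 5 of the 7 genes stood higher in the TRAP fraction and 2 stood lower. Itgb5 was 51.7-fold higher, Pros1 25.3-fold, Mertk 7.68-fold, Gas6 4.97-fold and Axl 1.78-fold. Mfge8 was 1.52-fold and Tyro3 2.59-fold lower in TRAP than in lysate. All 7 passed the test (edgeR quasi-likelihood test over 28 libraries, Benjamini-Hochberg adjusted p under 0.05 over 17092 genes). Of those genes 33.7% were called higher and 41.6% lower, 75.3% in all, so a call alone says little here. With library totals in place of TMM 28.3% of all calls were higher, with a GC correction 64.4%, and as reported 44.7%. The median over all tested genes was -0.23 on the log2 scale. In bulk libraries more cells of a type and more RNA per cell cannot be told apart.

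Mertk, the TAM receptor that drives engulfment in most macrophages, lies at chr2:128698956-128802894 on the plus strand. Its level ran from 85.6 to 215 CPM, with a median of 122 CPM, in the 14 TRAP libraries, and from 13.1 to 20.7 CPM, with a median of 17.4 CPM, in the 14 lysate libraries. The fractions did not overlap. The log2 difference was 2.94 ± 0.09 (SE, edgeR adjusted p = 4.97e-23), and within single mice the log2 ratio ran from 2.36 to 3.56. The fitted value lay below the range of the 16 microglial markers, 4.49 to 7.31, and that of the 10 border macrophage markers, 4.94 to 7.65. It lay within the range of the 12 endothelial markers, 1.15 to 3.01.

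Axl, a receptor that prefers Gas6 and is known to rise in inflamed phagocytes, lies at chr7:25757273-25788705 on the minus strand. It ran from 39.8 to 89.0 CPM, with a median of 56.4 CPM, in TRAP and from 18.6 to 53.1 CPM, with a median of 26.6 CPM, in lysate. Within cohort 1 the fractions were apart. In cohort 2 they overlapped, since 1 TRAP library, at 51.4 CPM, lay below 1 lysate of another mouse, at 53.1 CPM. All 14 mice had more Axl in TRAP than in their own lysate, by 0.08 to 1.69 on the log2 scale. The fitted log2 difference was 0.83 ± 0.09 (SE, edgeR adjusted p = 1.58e-09). It was 0.30 with library totals instead of TMM, a scaling that moved the median of all genes by -0.53.

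Tyro3 lies at chr2:119797733-119818104 on the plus strand. It ran from 21.3 to 62.7 CPM, with a median of 38.2 CPM, in TRAP and from 47.4 to 213 CPM, with a median of 69.4 CPM, in lysate. Within each cohort the TRAP libraries all lay below the lysates, and between the cohorts they overlapped. All 14 mice had less Tyro3 in TRAP, and the log2 difference was -1.37 ± 0.09 (SE, edgeR adjusted p = 3.53e-14). This value lay within the range of the 12 neuronal markers, -2.18 to -0.49. It also lay within those of the astrocytic markers, -1.52 to -0.32, and the oligodendrocytic ones, -2.79 to -0.46. The same held for the 8 fibroblast markers, -1.90 to 0.52, and the 8 oligodendrocyte precursor ones, -1.95 to 0.39. The value therefore singles out none of these cell types.

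Among the ligands, Gas6 lies at chr8:13465374-13494490 on the minus strand. It ran from 125 to 683 CPM, with a median of 245 CPM, in TRAP and from 33.0 to 130 CPM, with a median of 49.2 CPM, in lysate. The overlap came from the 2 cohorts, and within either cohort TRAP and lysate were apart. The log2 difference was 2.31 ± 0.09 (SE, edgeR adjusted p = 1.99e-19). Gas6 shares 34 exon bases with Tmem255b on the opposite strand, and the strand setting of the counting is not known here.

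Pros1, the other TAM ligand and a cofactor of anticoagulation in blood, lies at chr16:62854307-62929346 on the plus strand. It ran from 102 to 301 CPM, with a median of 218 CPM, in TRAP and from 6.39 to 13.1 CPM, with a median of 7.70 CPM, in lysate. No TRAP library came near the highest lysate. The log2 difference was 4.66 ± 0.13 (SE, edgeR adjusted p = 2.30e-23).

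Mfge8, a secreted protein known in brain from astrocytes and vessel walls, lies at chr7:79133768-79149060 on the minus strand. It ran from 59.6 to 214 CPM, with a median of 87.8 CPM, in TRAP and from 86.3 to 306 CPM, with a median of 142 CPM, in lysate. All 14 mice had less of it in TRAP than in their own lysate, with log2 ratios of -1.27 to -0.07. Within cohort 2 the fractions were apart, and in cohort 1 they overlapped. The fitted log2 difference was -0.61 ± 0.09 (SE, edgeR adjusted p = 4.52e-07). It lay within the ranges of the 12 astrocytic markers, -1.52 to -0.32, the neuronal ones, -2.18 to -0.49, and the oligodendrocytic ones, -2.79 to -0.46. The ranges of the 10 mural markers, -1.10 to 1.57, the 8 fibroblast ones, -1.90 to 0.52, and the 8 oligodendrocyte precursor ones, -1.95 to 0.39, held it as well. The fitted difference was -1.14 with library totals, -0.37 with a GC correction, and -0.59 without a cohort term, where it was no longer called (adjusted p = 0.0566).

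Itgb5, the integrin chain of the Mfge8 receptor αvβ5, lies at chr16:33829665-33949338 on the plus strand. It ran from 769.7 to 4510.5 CPM, with a median of 1444 CPM, in TRAP and from 18.3 to 76.2 CPM, with a median of 30.4 CPM, in lysate. The lowest TRAP library held more than any lysate. The log2 difference was 5.69 ± 0.12 (SE, edgeR adjusted p = 2.52e-26). It lay within the range of the 16 microglial markers, 4.49 to 7.31, and that of the 10 border macrophage markers, 4.94 to 7.65.

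**Figure D1:**
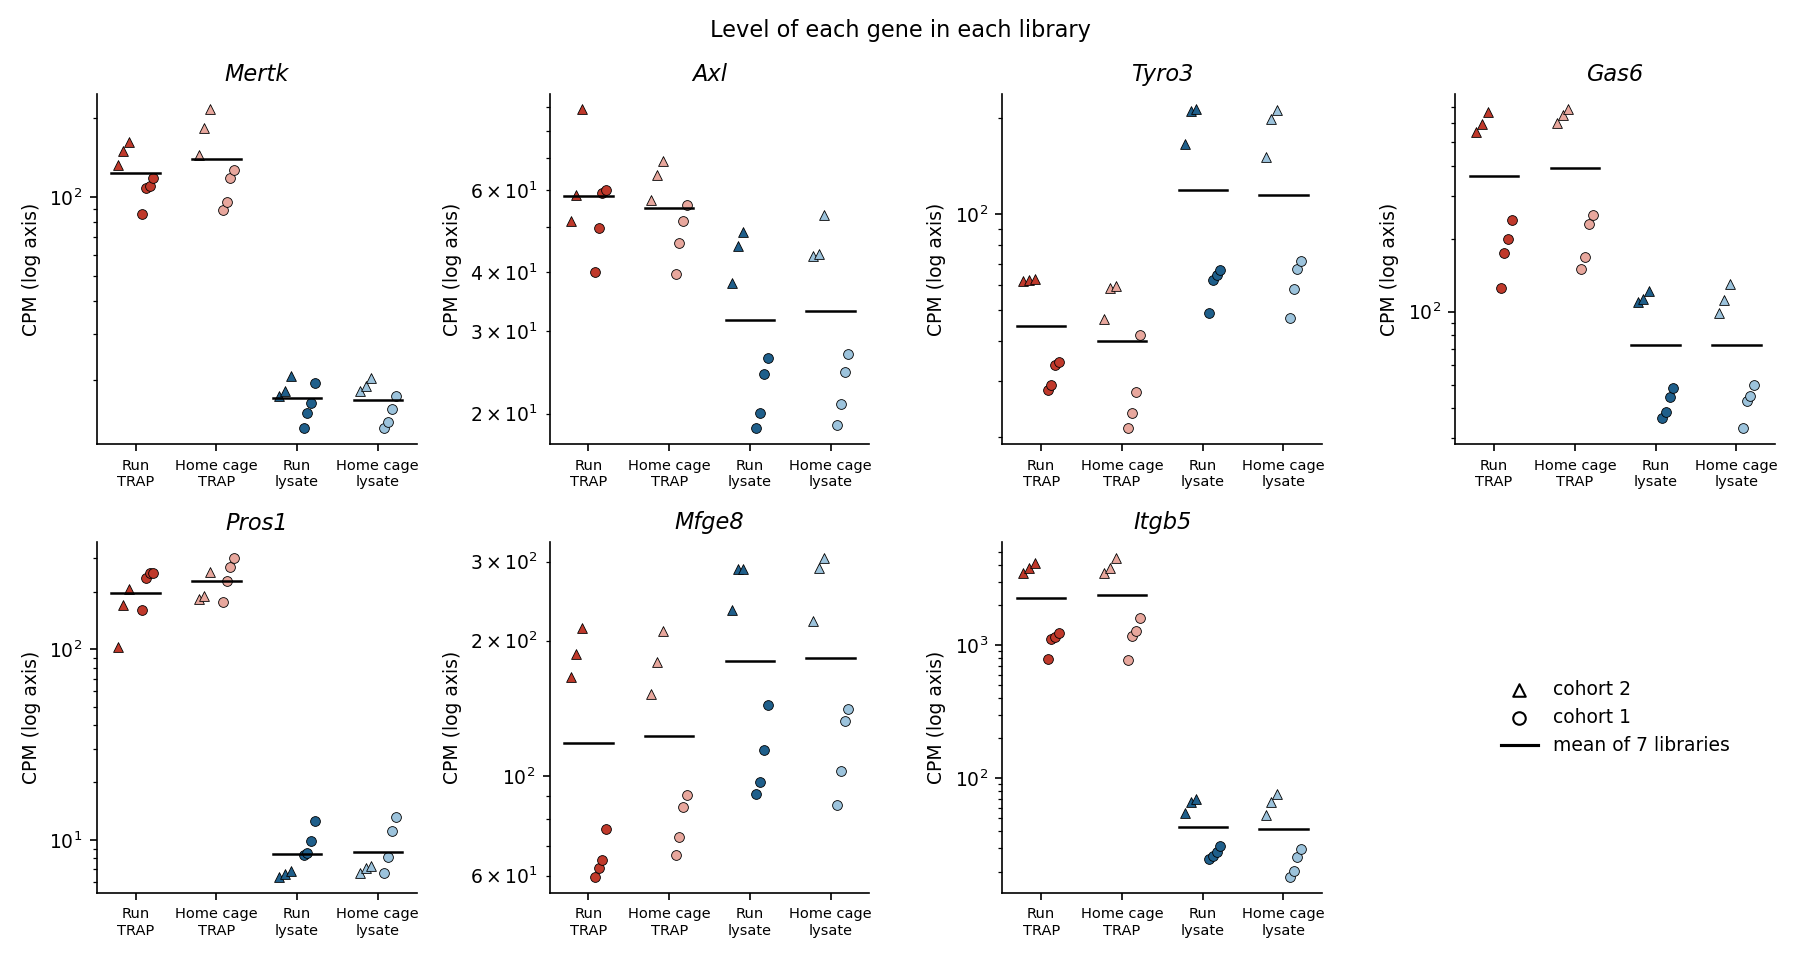
Level of each gene in each library, in CPM on a log axis, with 1 panel a gene, triangles for cohort 2, circles for cohort 1 and a bar for the mean of 7 libraries. Mertk, Pros1 and Itgb5 show TRAP libraries wholly above the lysates, and in Tyro3, Gas6, Mfge8 and Itgb5 the cohorts separate within each fraction.

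Over both cohorts 3 genes, Mertk, Pros1 and Itgb5, had TRAP libraries wholly above the lysates in CPM, as had 11.6% of the genes tested. No gene of the 7 had TRAP wholly below lysate, as had 4.3% of the genes tested. Within cohort 1 all but Mfge8 were apart, as were 20.1% of genes with TRAP higher and 15.5% with TRAP lower. Within cohort 2 all but Axl were, as were 25.1% and 27.2%. Transcripts of other cells were present in TRAP as well, and their part in these values was not tested. The summed level of the 12 neuronal markers ran from 2251 to 9068 CPM in TRAP and from 9286 to 17984 CPM in lysate, and that of the 12 astrocytic markers from 1837 to 3541 CPM in TRAP and from 3836 to 4392 CPM in lysate. The 12 endothelial markers summed to 179 to 840 CPM in TRAP and 46.2 to 134 CPM in lysate, and no marker of these lists was at 0 in all libraries of a group. The Mertk value of 2.94 and the Gas6 value of 2.31 lay within the range of the endothelial markers, 1.15 to 3.01. The Axl value of 0.83 lay within that of the 10 mural markers, -1.10 to 1.57.

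**Figure D2:**
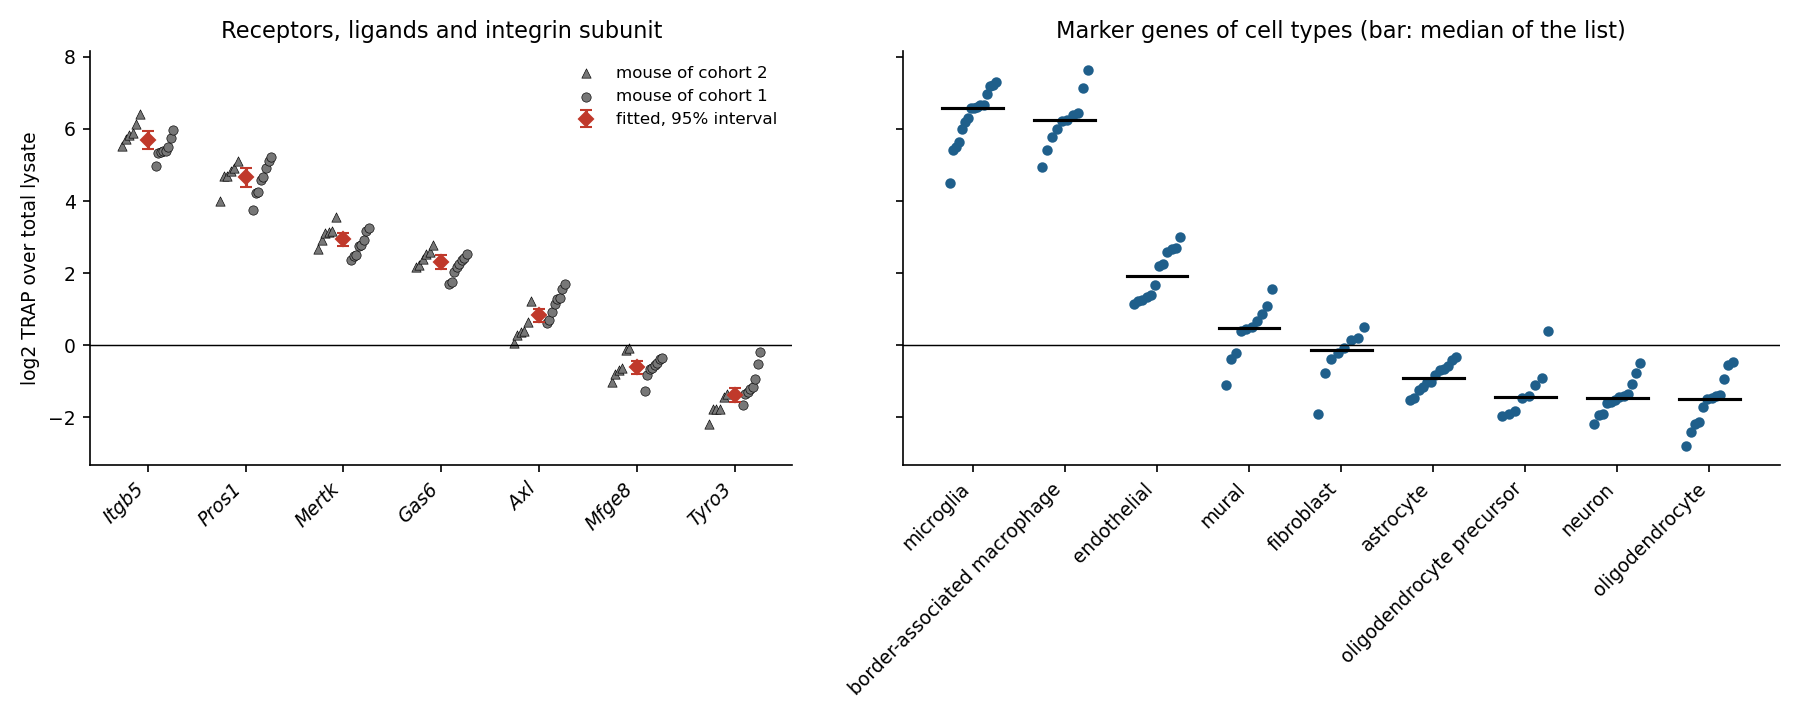
Log2 TRAP over total lysate of each gene, with triangles for the mice of cohort 2, circles for those of cohort 1 and red diamonds for the fitted value with its 95% interval, beside the fitted values of cell type markers with the median of each list as a bar. Itgb5 lies within the ranges of the microglial and border macrophage markers. Pros1 lies near the lower end of the microglial range and below the border macrophage markers. Mertk lies below the ranges of both and within that of the endothelial markers. Tyro3 and Mfge8 lie within the ranges of the neuronal, astrocytic, oligodendrocytic, oligodendrocyte precursor and fibroblast markers, and Mfge8 also within that of the mural markers.

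Each of the 7 genes was called in the same direction in both cohorts, where 64.9% of genes in cohort 2 (30.7% higher, 34.1% lower) and 64.4% in cohort 1 (30.9% higher, 33.5% lower) were called. The size differed between cohorts for 2 of the 3 receptors. Axl had a log2 difference of 0.51 in cohort 2 and 1.15 in cohort 1, and Tyro3 had -1.72 in cohort 2 and -1.02 in cohort 1. The cohort 2 minus cohort 1 differences were -0.64 ± 0.18 for Axl (SE, edgeR adjusted p = 0.0112) and -0.69 ± 0.18 for Tyro3 (SE, edgeR adjusted p = 0.00664). Of the 17092 genes tested 11.7% were called lower and 8.05% higher in this difference, 19.7% in all. For the other 5 genes the test was not passed, with differences from 0.10 for Mfge8 (95% interval -0.26 to 0.46) to 0.43 for Itgb5 (0.03 to 0.82; adjusted p = 0.127).

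The calls were kept under some settings and changed under others. Library totals in place of TMM, added after seeing the data, moved the median of all genes in this difference by -0.33. Of the 7 genes 0 were then called higher and 2 lower, against 2.19% and 24% of all genes. A GC correction chosen after seeing the data moved the median of all genes in this difference by 0.35, to 0.31, against -0.04 as reported. The Axl difference was then -0.25 (adjusted p = 0.320) and that of Tyro3 -0.35 (adjusted p = 0.0800), neither called, while Mertk at 0.69, Gas6 at 0.60, Mfge8 at 0.42 and Itgb5 at 0.73 were called, with 25.1% of all genes called higher and 5.94% lower. In home cage libraries alone Axl was at -0.64 and Tyro3 at -0.68, close to the values above, and neither was called (adjusted p = 0.133 and 0.231). The median TRAP over lysate of the neuronal markers was -1.86 in cohort 2 and -1.10 in cohort 1, and that of the microglial markers 6.82 in cohort 2 and 6.26 in cohort 1. The part of these markers in the cohort difference was not tested.

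Levels of different genes were compared per exon length, as CPM per kilobase. In TRAP the order was Itgb5 (650 ± 405), Gas6 (148 ± 88.9), Pros1 (52.1 ± 12.8), Mertk (30.3 ± 8.50), Mfge8 (25.7 ± 12.8), Axl (11.2 ± 2.50) and Tyro3 (6.83 ± 2.56 CPM per kilobase, SD, n = 14). In lysate it was Mfge8 (38.6 ± 18.2), Gas6 (28.7 ± 14.8), Tyro3 (18.9 ± 11.2), Itgb5 (11.9 ± 5.88), Axl (6.43 ± 2.46), Mertk (3.92 ± 0.59) and Pros1 (2.08 ± 0.56 CPM per kilobase, SD, n = 14). So Pros1 and Mertk, at the bottom of the order in lysate, stood in the middle of it in TRAP. All 12 pairs of neighbours differed within libraries (exact two-sided paired permutation test, adjusted over 12 pairs). The least separated pair was Mertk over Mfge8 in TRAP, in that order in 11 of 14 libraries (exact permutation test, adjusted p = 0.0214). That order held in 3 of 6 TRAP libraries of cohort 2 and 8 of 8 of cohort 1. Pros1 stood over Mertk in 13 of 14 TRAP libraries (exact permutation test, adjusted p = 0.000533). The other pairs kept their order in 14 of 14 libraries, at p = 0.000122 before adjustment, the smallest these permutations can give (exact permutation test, adjusted p = 0.000146).

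Mertk made up most of the TAM receptor level in TRAP and Tyro3 most of it in lysate. Mertk took 62.4 ± 5.0% of the summed length-scaled level of the 3 receptors in TRAP and 15.8 ± 5.7% in lysate (SD, n = 14). Tyro3 took 14.0 ± 3.6% in TRAP and 61.2 ± 8.3% in lysate, with no overlap between the fractions. The share of Axl was 23.7 ± 4.0% in TRAP and 23.0 ± 2.9% in lysate, and the ranges overlapped. These shares are ratios of the same values as above and were not tested again.

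Among the TAM ligands Gas6 was above Pros1 in every library of both fractions, and Pros1 took a larger share in TRAP. Pros1 held 31.5 ± 14.9% of the summed ligand level in TRAP and 8.84 ± 5.39% in lysate (SD, n = 14). In cohort 2 its share was 15.5 ± 3.9% in TRAP and 3.61 ± 0.26% in lysate (n = 6), and in cohort 1 it was 43.4 ± 4.5% in TRAP and 12.8 ± 3.6% in lysate (n = 8). The exons of Pros1 hold 43.4% G and C and those of Gas6 56.6%, and the part of the GC trend between cohorts in this share was not tested. The TRAP libraries of cohort 2 and the lysates of cohort 1 overlapped in it.

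**Figure D3:**
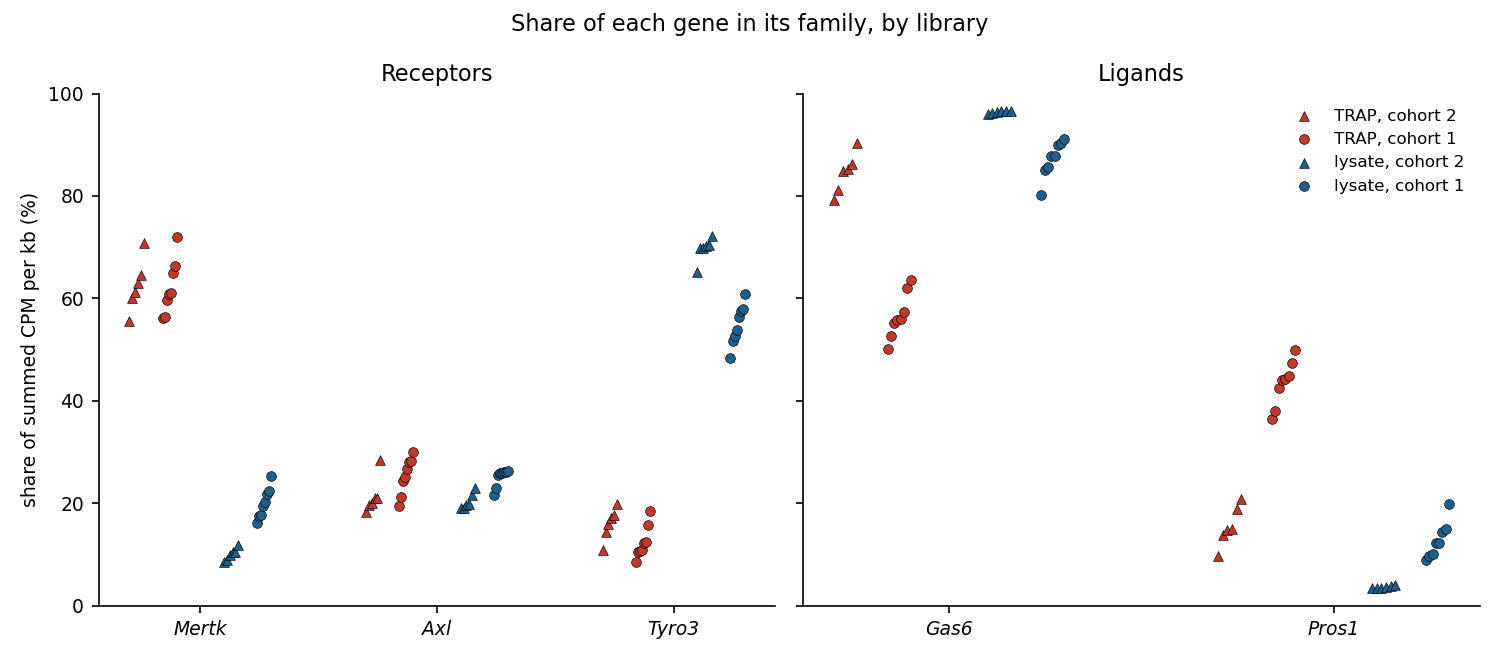
Share of each receptor among the 3 receptors and of each ligand among the 2 ligands, in percent of summed CPM per kilobase, in TRAP (red) and lysate (blue), with triangles for cohort 2 and circles for cohort 1. Mertk holds 55.6% to 71.9% of the receptor level in TRAP and 8.58% to 25.3% in lysate, and the Pros1 share is lower in cohort 2 than in cohort 1 in both fractions.

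Most of the genes differed in level between cohorts. Cohort 2 over cohort 1, in log2, was 1.77 for Itgb5, 1.70 for Gas6, 1.36 for Mfge8, 0.97 for Tyro3, 0.62 for Mertk, 0.38 for Axl and -0.36 for Pros1 in TRAP. In lysate it was 1.32 for Itgb5, 1.41 for Gas6, 1.24 for Mfge8, 1.63 for Tyro3, 0.28 for Mertk, 0.99 for Axl and -0.54 for Pros1. The 5 genes with 55.4% to 56.6% G and C in their exons were higher in cohort 2 in both fractions, and Pros1, at 43.4%, was lower in it in lysate and not called in TRAP (adjusted p = 0.0787). In TRAP 63.3% of all genes were called between cohorts (32.7% higher, 30.6% lower), and in lysate 69.6% (35.6% higher, 34% lower). Mertk, at 48.0%, was higher in cohort 2 in both fractions. Over all genes, those with 54% to 58% G and C had a median of 1.00 in TRAP and 1.04 in lysate, those with 46% to 50% had -0.36 in TRAP and -0.32 in lysate, and those with 42% to 45% had -1.09 in TRAP and -1.03 in lysate. Mertk thus lay above the median of genes of like GC content in both fractions, as did Pros1, Itgb5, Gas6 and Mfge8. Tyro3 did so in lysate only and Axl in neither fraction. Cohort was a term in every fit as reported.

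The other genes of the pathway were described by lists, of which the receptors of engulfment and of signals from dying cells had the highest median in TRAP over lysate. Of 15 tested receptors other than the TAM family, 10 were higher and 2 lower in TRAP, with a median of 4.67 against -0.23 over all genes. Trem2, a lipid receptor of microglia, was at 6.58 and Stab1, a scavenger receptor, at 6.22, while Megf10, an engulfment receptor of astrocytes, was at -1.87 and Adgrb1, known as BAI1, at -0.52. With library totals the split was 9 higher and 4 lower. Trem2 and Stab1 are also in the microglial and border macrophage lists.

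Partners of the bridge were split. Of 14 integrin chains and bridging or opsonising proteins, 8 were higher and 4 lower in TRAP, with a median of 1.72. C1qa and C1qc, chains of the complement opsonin C1q and also on the microglial list, were at 7.31 and 7.21. Edil3, the other RGD protein with phosphatidylserine-binding domains like those of Mfge8, was at -2.10, and Clu, clusterin, at -1.35, so both lay on the lysate side as Mfge8 did.

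Downstream of the receptors, 12 of 19 genes of the engulfment machinery were higher and 4 lower, with a median of 0.75. Rac2 and Vav1, a GTPase and an exchange factor of blood cells, were at 6.87 and 6.14, and Gulp1, an adaptor of engulfment receptors, and Ptk2, focal adhesion kinase, at -1.87 and -1.63. With library totals the split of that list was 9 higher and 7 lower. Of 16 genes of TAM signalling and receptor shedding, 13 were higher and 1 lower, with a median of 1.63. Plcg2, a phospholipase downstream of immune receptors, was at 5.42 and Ifnar2, an interferon receptor chain through which TAM receptors act on Socs1 and Socs3, at 3.65.

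Of 9 transcription factors linked to Mertk expression 7 were higher and 1 lower, with a median of 0.94 (6 higher and 2 lower with library totals). The lipid-sensing receptor Ppard was at 2.39 and Pparg at -1.96. The enzymes that carboxylate Gas6 and Pros1, or recycle vitamin K, were split, with 2 of 6 higher and 2 lower and a median of -0.03. Vkorc1, the vitamin K epoxide reductase, was at 2.91, and the quinone reductases Nqo1 and Aifm2 were at -1.61 and -0.54. Of 11 genes of phosphatidylserine exposure 5 were higher and 3 lower, with a median of -0.20. The scramblases Ano6 and Xkr8 were at 2.71 and 2.40, and Xkr4 and Tmem30a, the chaperone of flippases, at -1.34 and -0.66. These last 2 medians differed in sign between cohorts, with -0.22 in cohort 2 and 0.16 in cohort 1 for carboxylation and -0.31 in cohort 2 and 0.28 in cohort 1 for exposure. Both changed sign with a GC correction, to 0.57 in both lists, as did the median of all genes, from -0.23 to 0.28. With the correction the carboxylation list had 4 genes higher and 1 lower and the exposure list 7 higher and 0 lower. With library totals they had 1 higher and 4 lower, and 4 higher and 6 lower. Over all genes 64.4% of calls were higher with the correction, 28.3% with library totals and 44.7% as reported. With DESeq2-type size factors the exposure list had 5 of each.

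**Figure D4:**
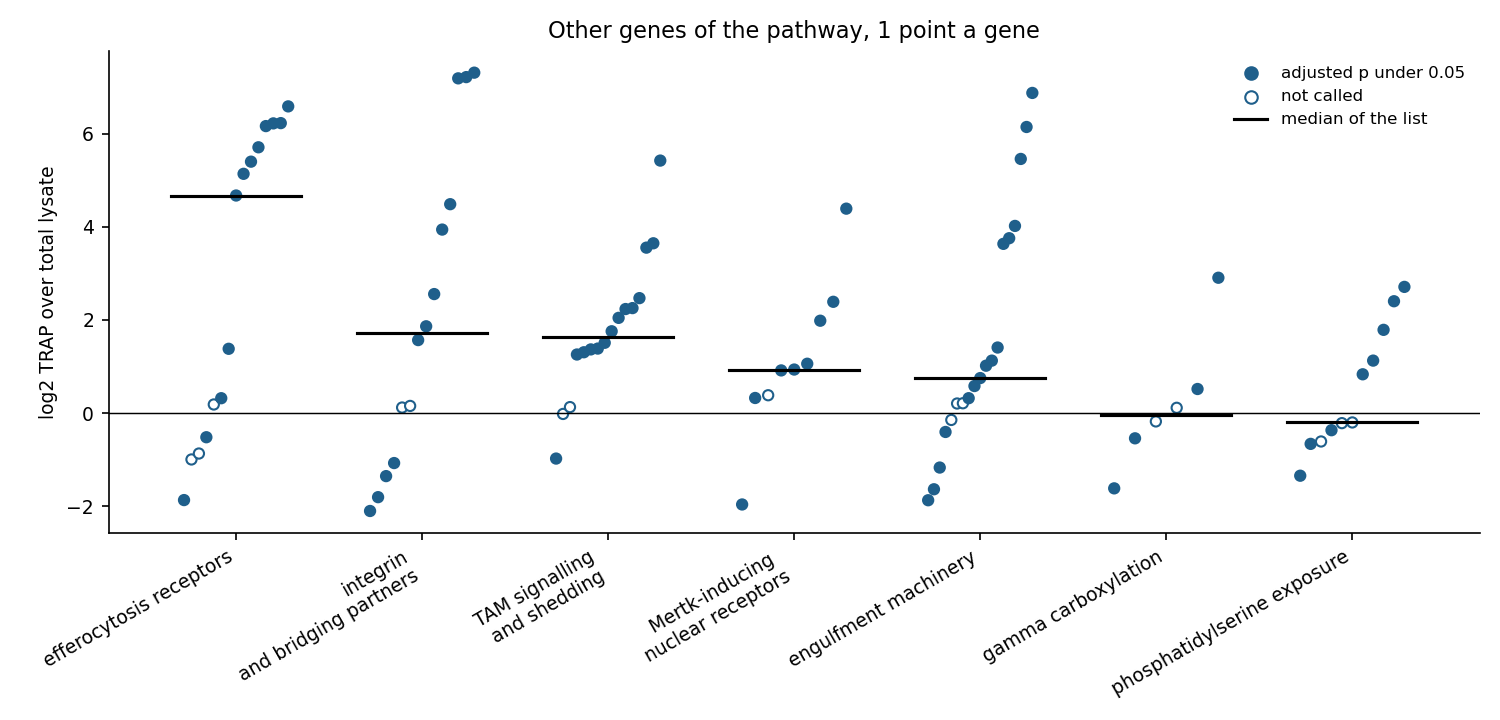
Log2 TRAP over total lysate of the other genes of the pathway, 1 point a gene, filled where the adjusted p was under 0.05, with the median of each list as a bar. The receptors of dying cells have the highest median, 4.67, and the lists of carboxylation and phosphatidylserine exposure lie around 0.

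After 1 h on the rotarod none of the 7 genes passed the test in TRAP. Their log2 differences, run over home cage, lay between -0.24 and 0.15, and the ranges of the 7 run and 7 home cage libraries overlapped for each gene, as they did for all but 0.0511% of the genes tested (run higher; 0% lower). Over all 15644 genes tested 6 were called (0.0384%, all higher), so calls were rare in this comparison. At an unadjusted p under 0.05 there were 557 genes and none of the 7. Every one of the 7 had an edgeR adjusted p of 0.999.

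Mertk ran from 85.6 to 161 CPM, with a median of 118 CPM, in run TRAP and from 89.1 to 215 CPM, with a median of 126 CPM, in home cage TRAP. The log2 difference was -0.14 ± 0.13 (SE; 95% interval -0.41 to 0.13). Axl ran from 40.2 to 89.0 CPM, with a median of 58.5 CPM, in run TRAP and from 39.8 to 69.1 CPM, with a median of 55.8 CPM, in home cage TRAP. Its difference of 0.09 ± 0.14 was well within the spread between mice. Tyro3 ran from 28.1 to 62.7 CPM, with a median of 34.5 CPM, in run TRAP and from 21.3 to 59.7 CPM, with a median of 41.9 CPM, in home cage TRAP. Its fitted difference was the highest of the 7, at 0.15 ± 0.14 (95% interval -0.14 to 0.44), although the run median over both cohorts was the lower one. Within each cohort the run median was the higher one, at 62.4 against 58.7 CPM in cohort 2 and 31.4 against 25.8 CPM in cohort 1.

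Pros1 had the lowest fitted value and the widest interval, -0.24 ± 0.17 (SE; 95% interval -0.60 to 0.11). It ran from 102 to 250.9 CPM, with a median of 206 CPM, in run TRAP and from 178 to 301 CPM, with a median of 229 CPM, in home cage TRAP. A run library of cohort 2, at 102 CPM, lay below all others, and it came from a mouse whose Y-linked genes went against its labelled sex. With 1 library left out at a time the Pros1 difference ran from -0.32 to -0.14. Gas6 ran from 125 to 666 CPM, with a median of 239.9 CPM, in run TRAP and from 149 to 683 CPM, with a median of 250.1 CPM, in home cage TRAP, a difference of -0.10 ± 0.15.

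Mfge8 ran from 59.6 to 214 CPM, with a median of 76.1 CPM, in run TRAP and from 66.5 to 209.9 CPM, with a median of 90.5 CPM, in home cage TRAP. Itgb5 ran from 780.3 to 4125 CPM, with a median of 1240.5 CPM, in run TRAP and from 769.7 to 4510.5 CPM, with a median of 1607 CPM, in home cage TRAP. Both had a fitted difference of -0.12, with SEs of 0.13 and 0.15. Across the 7 genes the 95% intervals reached no lower than -0.60 and no higher than 0.44, so a change of 2-fold in either direction lay outside each of them. The log2 balance of microglial over neuronal markers was 3.78 ± 0.72 in run TRAP and 3.98 ± 0.66 in home cage TRAP (SD, n = 7 each), and with it as a covariate none of the 7 was called. Of the cell type lists in TRAP, the neuronal markers had the highest median, 0.17, and the mural ones the lowest, -0.38. The endothelial markers had -0.27, with none called in any list. In lysate the endothelial median was -0.37 and the mural one -0.07, again with none called.

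In total lysate the differences were smaller still, from -0.05 to 0.12, and none passed the test. All 7 overlapped between groups, where 0.0363% of genes were apart with run higher and 0.0182% with run lower. Of 16522 genes tested 5 were called (0.0303%, all higher), and 1206 had an unadjusted p under 0.05, none of them among the 7. Itgb5 had the largest value, 0.12 ± 0.12 (SE; edgeR adjusted p = 0.824), with 24.7 to 69.5 CPM, median 31.0 CPM, in run lysate and 18.3 to 76.2 CPM, median 29.7 CPM, in home cage lysate. Tyro3 ran from 49.2 to 213 CPM, with a median of 67.0 CPM, in run lysate and from 47.4 to 212 CPM, with a median of 71.5 CPM, in home cage lysate, a difference of 0.03 ± 0.11. The ligands were close to 0, Gas6 at -0.00 ± 0.10 and Pros1 at -0.02 ± 0.15. Mfge8, with 91.3 to 289 CPM in run lysate and 86.3 to 306 CPM in home cage lysate, was at -0.03 ± 0.13.

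The difference of the run change between TRAP and lysate was not called for any of the 7. It ran from -0.23 for Itgb5 (95% interval -0.62 to 0.16) to 0.14 for Axl (-0.22 to 0.51). No gene of 17092 was called by edgeR (0%), with 837 at an unadjusted p under 0.05 and 40 called by DESeq2, none of them among the 7.

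Within single cohorts no run difference of the 7 was called. In TRAP of cohort 2 the run differences ran from -0.41 for Pros1 (95% interval -0.95 to 0.14) and -0.30 for Mertk (-0.72 to 0.11) to 0.16 for Tyro3. In TRAP of cohort 1 they ran from -0.25 for Mfge8 (-0.60 to 0.09) to 0.14 for Tyro3. Tyro3 in cohort 2 was the one case without overlap, with 61.5, 62.4 and 62.7 CPM in the 3 run libraries and 46.9, 58.7 and 59.7 CPM in the 3 home cage libraries. Such a separation with run higher was found in 5.13% of the genes tested, and one with run lower in 3.56%, and the fitted difference was not called (edgeR adjusted p = 1). The run change did not differ between cohorts past the threshold for any of the 7. By edgeR it did so for 0 of 16289 genes in TRAP, with 804 at an unadjusted p under 0.05 and 53 called by DESeq2, and for 0 of 17101 in lysate, with 428 and 5. The largest such differences were 0.30 for Mfge8 and -0.29 for Mertk in TRAP and -0.26 for Itgb5 in lysate.

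**Figure D5:**
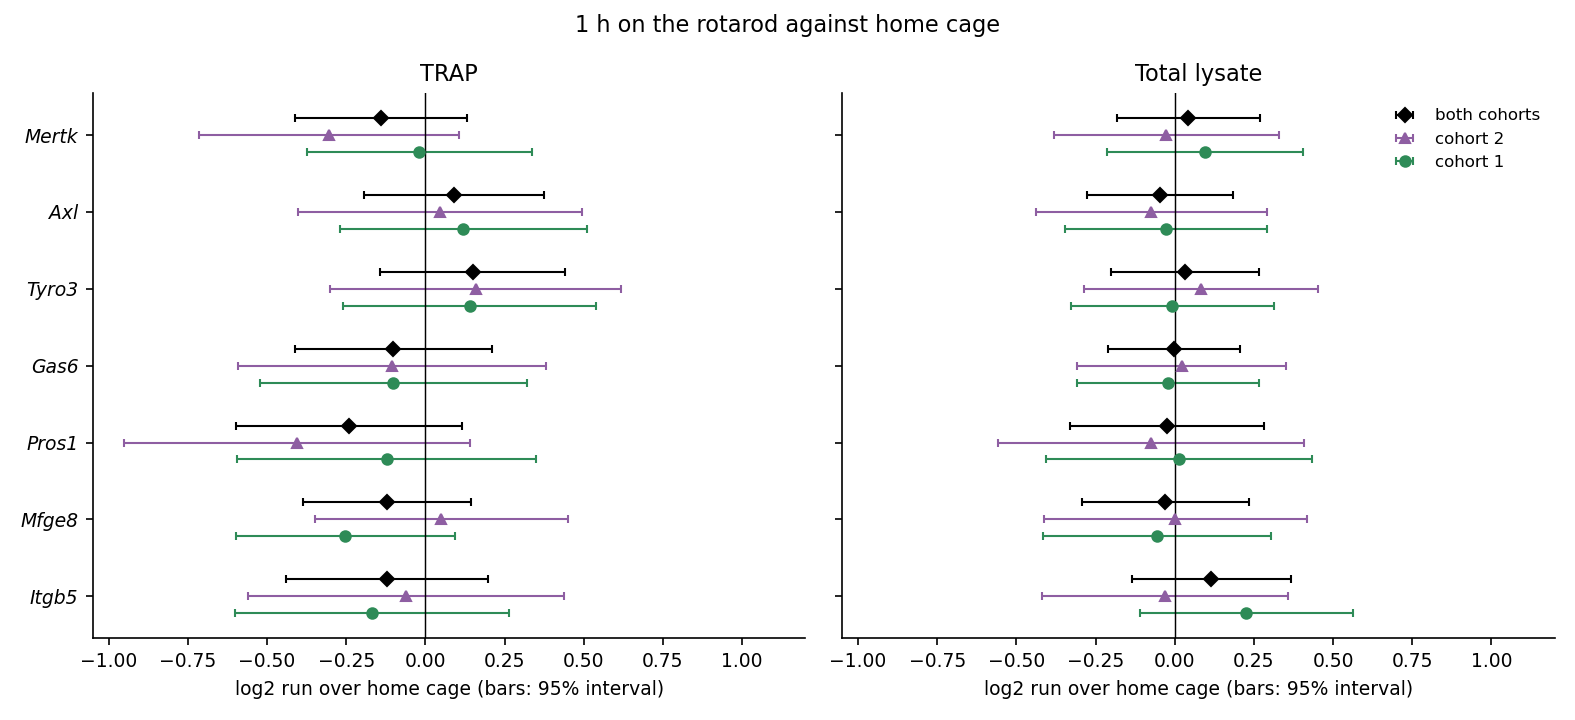
Log2 run over home cage of each gene in TRAP and total lysate, for both cohorts together (black), cohort 2 (purple) and cohort 1 (green), with 95% intervals as bars. Every interval includes 0, and for each gene the intervals within single cohorts are wider than that of both cohorts together.

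None of the genes on the 7 pathway lists was called in either run comparison. In TRAP the gene nearest to the threshold was Socs3, a cytokine signalling inhibitor that TAM receptors induce, at -0.73 ± 0.32 (SE, edgeR adjusted p = 0.999). In lysate they were Nr3c1, the glucocorticoid receptor, at -0.33 ± 0.11 and Itgb3, the β chain of αvβ3, at -0.77 ± 0.26 (both edgeR adjusted p = 0.575). Of the lists' medians in TRAP the lowest was -0.11, for TAM signalling, against 0.00 over all genes tested.

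Some of the genes varied together from library to library, and the following coefficients describe 28 libraries after the means of fraction and cohort were removed. They share library, depth, purity and GC trend. Mertk and Pros1 had a Pearson r of 0.74, with 0.84 in TRAP and 0.55 in lysate. Gas6 and Itgb5 had 0.78, with 0.84 in TRAP and 0.67 in lysate. Tyro3 ran against Mertk in TRAP, at -0.61, and with Mfge8 in lysate, at 0.83. Over all genes the nearest to Itgb5 was Glmp, a lysosomal membrane glycoprotein, at 0.89, and to Mfge8 Igsf8, an immunoglobulin superfamily protein, at 0.89. The nearest to Pros1 was Tgoln1 at 0.82, to Gas6 Slc39a7 at 0.85, to Tyro3 Arhgef17 at 0.78, and to Mertk Slc30a7 and to Axl Lgi4 at 0.75 each.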

How the data were processed

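The deposited values are raw counts per gene, made by the authors from polyA RNA isolated with the RNeasy Mini Kit and Nextera XT libraries, per the labels. The submitters' processing notes name STAR 2.7.7a, featureCounts, DESeq2 and GRCm38. No source used here gives the annotation, strand setting or treatment of multimapping reads. Columns were matched to samples by their titles, and unmarked columns were assigned to cohort 1, because every cohort 2 column is marked.

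Counts were fitted with edgeR 4.0.16 in R 4.3.3 (glmQLFit, glmQLFTest), with TMM scaling and filterByExpr, and p-values were adjusted by Benjamini-Hochberg, with a threshold of 0.05. Each run comparison used the 14 libraries of its fraction and a cohort term, and the fractions over 28 libraries with cohort and cohort by fraction. CPM are computed here. Logs for the correlations and the marker balance used a pseudocount of 0.5, and the ratios within mice and between genes used none. DESeq2 1.42.0 and limma 3.58.1 served as alternatives. Scripts were tested on simulated data. Exon length and GC come from GENCODE for GRCm38, in which 23306 symbols matched 1 gene. Intervals are 95% confidence intervals of the fit, and replicates are separate mice per the titles. Depth of 70090518 to 241381845 counts left no gene of the 7 near the detection limit. In 36 pairs of libraries of the same group and cohort, counts differed by a chi-square of at least 67.5 per degree of freedom, far above sampling noise.

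The titles pair a TRAP and a lysate library of each mouse. Deviations of the pair from group means had correlations of -0.30 to 0.26. Of the 14 mice, 5 exceeded 0.1, and for 5 the own lysate was the best match. The mouse as a block was an alternative.

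The 7 genes, the lists and the tests were chosen with earlier results of these data known. For TRAP over lysate, up to 2 called genes of each list were named in each direction by size, if their mean log2 CPM reached 1. Values of 2 genes so chosen are not reported here. For the run, the gene of smallest p per list was taken, and the text gives 3 of these. Genes most like each of the 7 were ranked by Pearson's r, the nearest 3, of which 1 each is given.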

Additional observations from a re-analysis of the deposited data

Results flagged for a closer look

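The TRAP over lysate difference of Axl was smaller in cohort 2 than in cohort 1, with a cohort 2 minus cohort 1 difference of -0.64 in log2, and all 14 mice had ratios above 0. That of Tyro3 was further below 0 in cohort 2, with a difference of -0.69, and all 14 mice had ratios below 0. Both passed the edgeR test of the difference between cohorts, 2 of 7 genes tested, as did 19.7% of all 17092 genes (11.7% lower, 8.05% higher). Neither did so after the GC correction, which moved the median of all genes by 0.35. In home cage libraries alone they were at -0.64 and -0.68 and were not called. For Pros1, 1 home cage mouse of cohort 1 lay apart from the other 6 home cage mice, with a log2 TRAP over lysate ratio of 3.76, against 4.59 to 5.22 in the others. Its lysate held 13.1 CPM of Pros1, the highest of the 14 lysates, and its TRAP library 178 CPM, the lowest of the 7 home cage ones. Among those 7 that TRAP library also had the lowest log2 balance of microglial over neuronal markers, 2.82, against 3.62 to 4.63. A run mouse of cohort 1 had a lower balance, 2.50, with a Pros1 ratio of 4.22. The ratios of the home cage mouse, 2.36 for Mertk and -0.18 for Tyro3, were the lowest and the nearest to 0 of all 14 mice. The parts of the balance and of the lysate level in the Pros1 value were not tested. Groups of libraries or mice were examined for such a value 42 times, and chance flags about 1 in 20.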

How the results depend on the processing

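For the 7 genes, direction and call were kept in 195 of 196 values of TRAP over lysate across 28 alternatives, with Mfge8 without a cohort term the exception (-0.59, adjusted p = 0.0566, leaving 1 gene called lower). In the run comparisons all values kept their call, 182 of 182 in TRAP and 175 of 175 in lysate, as did the 182, 140 and 140 values of the 3 differences of the run change. For the cohort 2 minus cohort 1 difference in enrichment 160 of 168 values kept their call. A GC correction, chosen after seeing the data, left 4 of the 7 genes called higher and 0 lower, against 25.1% and 5.94% of all genes. It moved the median of all genes in that difference by 0.35. Home cage libraries alone left 0 higher and 0 lower, against 0.657% and 2.45% of all genes. In home cage libraries alone Axl was at -0.64 (adjusted p = 0.133) and Tyro3 at -0.68 (0.231).

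With the mouse as a replicate block, the paired fit of TRAP over lysate called 5 of the 7 higher and 2 lower and 12989 genes in all, and the block changed no call among the 7. Leaving out 1 mouse at a time gave 5 higher and 2 lower each time, with 12539 to 12943 genes called, and 2 lower in the cohort difference. Library totals in place of TMM gave mean log2 ratios per mouse of 2.40 for Mertk, 0.36 for Axl, -1.84 for Tyro3, 1.77 for Gas6, 4.13 for Pros1, -1.12 for Mfge8 and 5.14 for Itgb5. In the fits, where totals were also added after seeing the data, they moved the median of all genes in TRAP over lysate by -0.53, the GC correction by 0.51, the fit without a filter by -0.14 and the block by -0.13.

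Counts over all genes in the run comparisons were unstable. In TRAP, 6 became 42 with DESeq2, 16 with the GC correction, 0 without a cohort term, 0 in cohort 2 alone, 0 in cohort 1 alone, and 3 to 10 with 1 library left out (3 without run TRAP replicate 6 or home cage TRAP replicate 4, 10 without run TRAP replicate 2). In lysate, 5 became 40 with DESeq2, 0 without a cohort term, in either cohort alone or without the 2 mice of doubtful sex label, and 0 to 8 with 1 library left out (0 without run lysate replicates 2, 3, 6 or 7 or home cage lysate replicates 2, 4, 6 or 7, 1 without run lysate replicate 4, and 8 without home cage lysate replicate 1). The difference between fractions went from 0 to 40 with DESeq2, 2 in cohort 2 alone and 0 to 1 with 1 mouse left out (1 without home cage replicate 7), and the cohort differences from 0 to 53 in TRAP and 5 in lysate with DESeq2. The cause of these shifts was not tested. Depth was no limit for these genes, while 7 mice a condition left a 95% interval of -0.60 to 0.11 for the run difference of Pros1 in TRAP.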
